A study of Mus musculus with 32 samples.

Results

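The 88 records examined here are the cytoplasmic ribosomal protein genes of the mouse, taken by name from 46165 gene records that each deposited file holds. A record was kept if its symbol was Rpl or Rps followed by a number and at most a short suffix, Rplp0, Rplp1, Rplp2 or Rpsa, and if it was not marked as a pseudogene in its name. The rule found 51 genes for proteins of the large subunit and 37 for proteins of the small subunit. It leaves out genes such as Fau and Rpl36al, whose names do not follow the pattern. Of the 88, 83 had annotated exons in the files, and 80 (48 large, 32 small) held enough reads in the exons to be tested.

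RNA came from the lungs of C57BL/6 pups, which carried no engineered allele in the labels, and was sequenced as 32 stranded polyA-selected libraries, 4 in each of 8 groups that differ in a control intervention. On postnatal day 14, lungs were taken from pups that received daily intraperitoneal saline on days 1 to 13 (25 µl/g), from pups given the LNA oligonucleotide Scrambled 1 or Scrambled 2 at 10 mg/kg in nuclease-free water on days 1 and 3, from pups given that water alone on days 1 and 3 (10 µl/g), and from untreated pups. On day 6, lungs were taken from pups given 0.4 mg tamoxifen in 25 µl of the oil Miglyol on days 1 and 2, from pups given 25 µl Miglyol alone on those days, and from pups given 25 µl saline on those days. Scrambled oligonucleotides are used as controls for microRNA inhibitors, and tamoxifen is used to switch on Cre recombinase in other mouse lines, so each group stands for what a control animal undergoes. Whether each library is a separate animal is not stated in the labels, and the p-values below measure the spread between libraries, which may in part be technical. No untreated group was taken on day 6. The ages differ also in the injection schedule and in the agent for euthanasia (pentobarbital on day 6, isoflurane on day 14), and these cannot be told apart from age.

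Ribosomal proteins assemble with ribosomal RNA into the small subunit, which reads the messenger RNA, and the large subunit, which joins the amino acids. Their messenger RNAs are short and abundant in all growing cells, and most begin with a run of pyrimidines, the 5′ terminal oligopyrimidine tract, through which the mTOR kinase and the RNA-binding protein Larp1 control their translation and storage. The spliced messengers have also been copied back into the genome many times as processed pseudogenes, so a short read from a ribosomal protein gene often fits several places. The young lung grows quickly while alveoli form, and growth draws on ribosome production.

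The start regions of members that recur below are shown because the pyrimidine run is the sequence feature this family shares. Each line gives 50 bases, 20 before and 30 after a start listed for the gene in RefSeq on GRCm38.p6. The longest unbroken run of C and T is in capitals. For Rpl22l1 and Rpl15 the start used lies inside the gene's span in the deposited records. The genes are Rps12 (chr10:23787180-23787229, minus strand), Rps26 (chr10:128626477-128626526, minus strand), Rps27 (chr3:90213619-90213668, minus strand), Rpl22l1 (chr3:28805488-28805537, plus strand), Rpl15 (chr14:18270957-18271006, minus strand) and Rpl7a (chr2:26910787-26910836, plus strand).
Rps12: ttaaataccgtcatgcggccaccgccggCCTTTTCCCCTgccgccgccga
Rps26: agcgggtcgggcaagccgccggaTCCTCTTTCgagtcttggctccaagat
Rps27: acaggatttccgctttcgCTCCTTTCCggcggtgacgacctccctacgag
Rpl22l1: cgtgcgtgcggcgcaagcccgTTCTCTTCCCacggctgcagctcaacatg
Rpl15: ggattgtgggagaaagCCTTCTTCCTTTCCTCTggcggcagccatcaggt
Rpl7a: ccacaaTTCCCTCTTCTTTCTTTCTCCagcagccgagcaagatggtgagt
The run had 11 bases in Rps12, 9 in Rps26 and in Rps27, 10 in Rpl22l1, 17 in Rpl15 and 21 in Rpl7a. Of the 88 members, 63 matched the RefSeq table. In 52 (82.5%) at least 8 C or T stood in a row on the coding strand within 50 bases of a listed start. The same held for 39.1% of 17429 other protein-coding genes. On the same strand and within the same 50 bases, CTCTTTC, itself a short pyrimidine run, was found in 19.0% of the 63 members and 1.46% of the others. The other motifs were searched over the whole 300-base window (250 before and 50 after the start, both strands), so their shares are not comparable with that of CTCTTTC. The ETS-type motif CCGGAAGT was found in 19.0% of members and 5.64% of the others, and the TATA motif TATAAA in 11.1% and 14.8%. GCCATCTTG, the core letters of the YY1 motif, was found in 1.59% of members and 1.65% of the others. A match is a description of these letters and shows no binding.

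In the TPM values that the authors deposited, which are scaled by exon length and so allow levels of different genes to be set side by side, the 80 tested members had a median of 840 TPM, against 21.7 TPM for the other genes tested. The highest levels belonged to Rplp1, an acidic protein of the ribosomal stalk (2865 ± 390 TPM, SD over all 32 libraries), Rps4x (2520 ± 291 TPM), Rpl41, the smallest ribosomal protein (2506 ± 409 TPM), Rps14 (2201 ± 156 TPM) and Rpl7 (2162 ± 172 TPM). The lowest were Rps12 (69.3 ± 19.99 TPM), Rpl7l1 (74.5 ± 4.42 TPM), Rpl10 (83.4 ± 18.1 TPM), Rpl15 (145 ± 18.2 TPM) and Rpl27 (152 ± 35.1 TPM). The proteins of a ribosome are present in it in about equal numbers, yet the deposited TPM values spanned 41.3-fold.

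How the reads map differs between these genes and the rest of the table. A total count here includes reads that fit several places, and a unique count does not. The unique share of a gene's exon reads was 25.9% in the median member and 100% in the median other gene, and it lay under 50% in 57 of 80 members against 6.56% of other genes. It was 0% for Rps27, and 0.0338% for Rps13, 0.0515% for Rpl12, 0.0516% for Rps23 and 0.110% for Rpl24, so the totals of these 5 genes consist almost wholly of shared reads. At the other end stood Rpl8 with 100% and Rps3 with 99.96%. The 23 members with a unique share of at least 50% had a median of 997 TPM, the 57 below it 819 TPM, and the 14 under 1% 598 TPM. Counts of the members with low unique shares are uncertain to the extent that the authors' counting splits reads among copies.

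Copies of the members' transcripts could be counted in the GENCODE vM21 annotation. In 79 of the 80 tested members at least 1 stretch of 50 bases of the principal transcript occurred in another annotated gene, and the median member shared one with 8 pseudogenes. Rpl7a shared stretches with 118 pseudogenes, Rpl21 with 81, Rpl29 with 77, Rps2 with 68 and Rpl17 with 50. In 9 members at least 10% of the stretches occurred in 10 or more other genes, among them Rps2, Rpl7a, Rpl29, Rpl21, Rps12, Rpl17, Rpl35a and Rpl23a. Their median level was 220 TPM, against 870 TPM in the other 71 members. The files hold 295 pseudogene records named after members, of which 2 have exons, and these records held 0 to 5 exon reads per library.

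**Figure D1:**
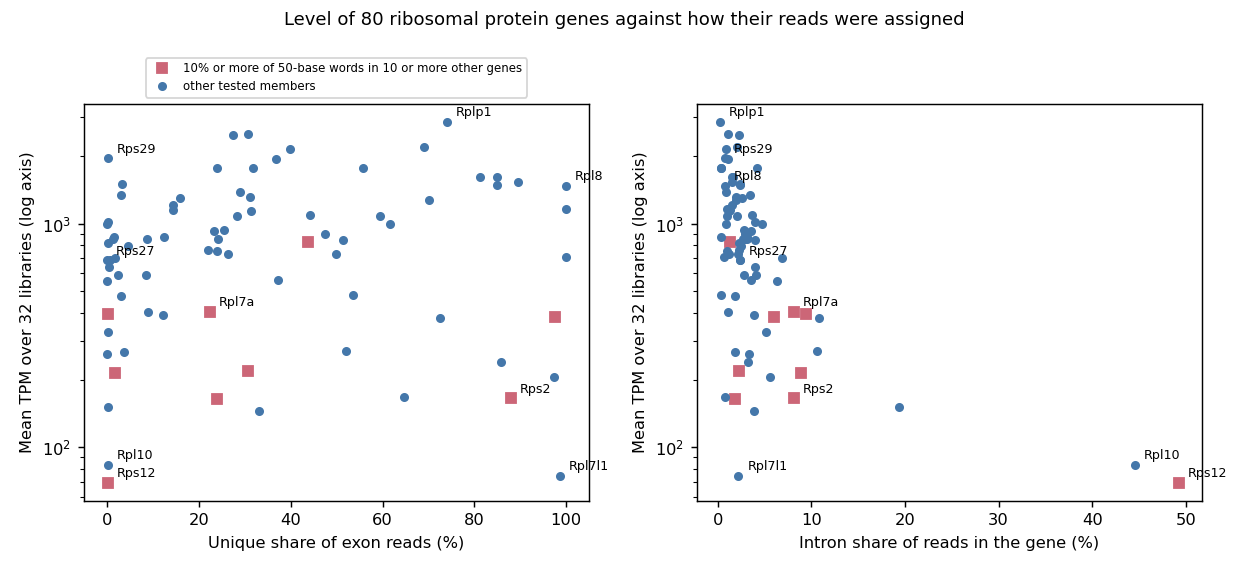
Deposited TPM (vertical, log axis, mean over 32 libraries) of each of the 80 tested ribosomal protein genes against the unique share of its exon reads (left, percent) and against its intron share (right, percent), with the 9 members of many copies as squares. In the left panel 57 of 80 points lie under 50%, and Rps12, Rpl10 and Rpl7l1 lie at the bottom of the level axis.

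Members are also short and hold few intron reads. Their exon length had a median of 740 bases, against 3471 bases for other genes, and 56 of 80 were at most 1000 bases long, against 4.52% of other genes. Rps27 (346 bases), Rps29 (390 bases) and Rps28 (391 bases) were the shortest, and Rps15a (5136 bases), Rps24 (3432 bases) and Rpl7l1 (2606 bases) the longest. Intron reads made up 2.36% of exon and intron reads in the median member and 14.9% in the median other gene. Rps12 (49.3%), Rpl10 (44.6%) and Rpl27 (19.3%) had the highest intron shares, and all 3 are among the 5 members with the lowest TPM. Their exon reads and the overlap of other annotated features with their introns were not told apart here.

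Of the 8 members that were not tested, Rps12l1, Rps12l2, Rps3a2, Rps3a3 and Rps4l have no exons in the files and therefore no exon reads. Rpl10l, a copy of Rpl10 known from testis, had 0 exon reads in every library. Rpl39l, likewise known from testis, averaged 1.5 reads per library, with 0 to 4. Rpl3l, the copy of Rpl3 used in heart and skeletal muscle, averaged 1.97 reads, with 0 to 18. Its highest value, 1.57 CPM, fell in water replicate 3, the library in which 10 skeletal muscle markers summed to 351 CPM, against 16.7 to 92.1 CPM in the other libraries of both ages.

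The libraries held 7918537 to 12443221 exon reads. The 11 lung markers summed to 16675 to 25666 CPM with none at 0 in any library, whereas Xist, which marks female cells, was at 0.298 to 0.701 CPM of gene reads in the 4 water libraries, and every other group held libraries under 1 CPM and at least 1 library at 403 CPM or more. CPM values below are counts scaled to library size with TMM factors. In bulk RNA, fewer cells of a type and less RNA per cell cannot be told apart.

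Ribosomal protein genes took 1.92% to 3.39% of all exon reads. The share was 2.27% ± 0.0736 after daily saline, 2.15% ± 0.118 after Scrambled 1, 2.18% ± 0.216 after Scrambled 2, 2.18% ± 0.151 after water and 2.30% ± 0.260 in untreated pups on day 14 (SD, n = 4 each). On day 6 it was 2.90% ± 0.373 after tamoxifen, 2.81% ± 0.289 after Miglyol and 2.38% ± 0.0773 after saline. All 4 tamoxifen libraries (2.49% to 3.39%) and all 4 Miglyol libraries (2.54% to 3.21%) lay above the 4 day 6 saline libraries (2.27% to 2.44%), while the 5 groups of day 14 overlapped. In unique reads alone the share was 0.946% to 1.00% in the groups of day 14, and 1.26% after tamoxifen, 1.24% after Miglyol and 1.05% after saline on day 6.

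Within most groups the share ran opposite to the share of intron reads of the library. In 6 of 8 groups the library with most intron reads had the lowest ribosomal protein share, and in 5 of 8 the library with fewest had the highest. Among tamoxifen libraries, replicate 2 had 11.8% intron reads and a ribosomal protein share of 3.39%, and replicate 4 had 15.01% and 2.49%. Among Miglyol libraries, replicate 4 had 11.4% and 3.21%, and replicate 2 had 14.3% and 2.54%. Untreated replicate 4 had 15.5% and 1.92%, the lowest share of all 32. These libraries stand apart gene by gene as well: tamoxifen replicate 2 was the highest of its group in 78 of 80 members and Miglyol replicate 4 in 79, while tamoxifen replicate 4 was the lowest in 73, Miglyol replicate 2 in 69 and untreated replicate 4 in 78. Scrambled 2 replicate 4 was the highest of its group in 72 members with 11.99% intron reads, and Scrambled 2 replicate 3 the lowest in 68 with 12.5%, so that group did not follow the order of the intron share, which was 11.1% in replicate 2 and 13.8% in replicate 1. Day 6 saline did not follow it either. Its replicate 2 had the fewest intron reads (13.9%) with a share of 2.39%, and replicate 3 the most (16.1%) with 2.42%.

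The group means of the intron share were 13.3% ± 1.33 after tamoxifen, 13.1% ± 1.25 after Miglyol and 15.1% ± 0.898 after saline on day 6. Other genes with at most 1000 bases of exon moved alongside: they took 6.55% of exon reads after tamoxifen, 6.75% after Miglyol and 5.40% after saline. On day 14 the intron share was lowest after daily saline (10.0% ± 1.04), against 14.1% ± 1.42 after water and 12.7% ± 1.95 in untreated pups.

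**Figure D2:**
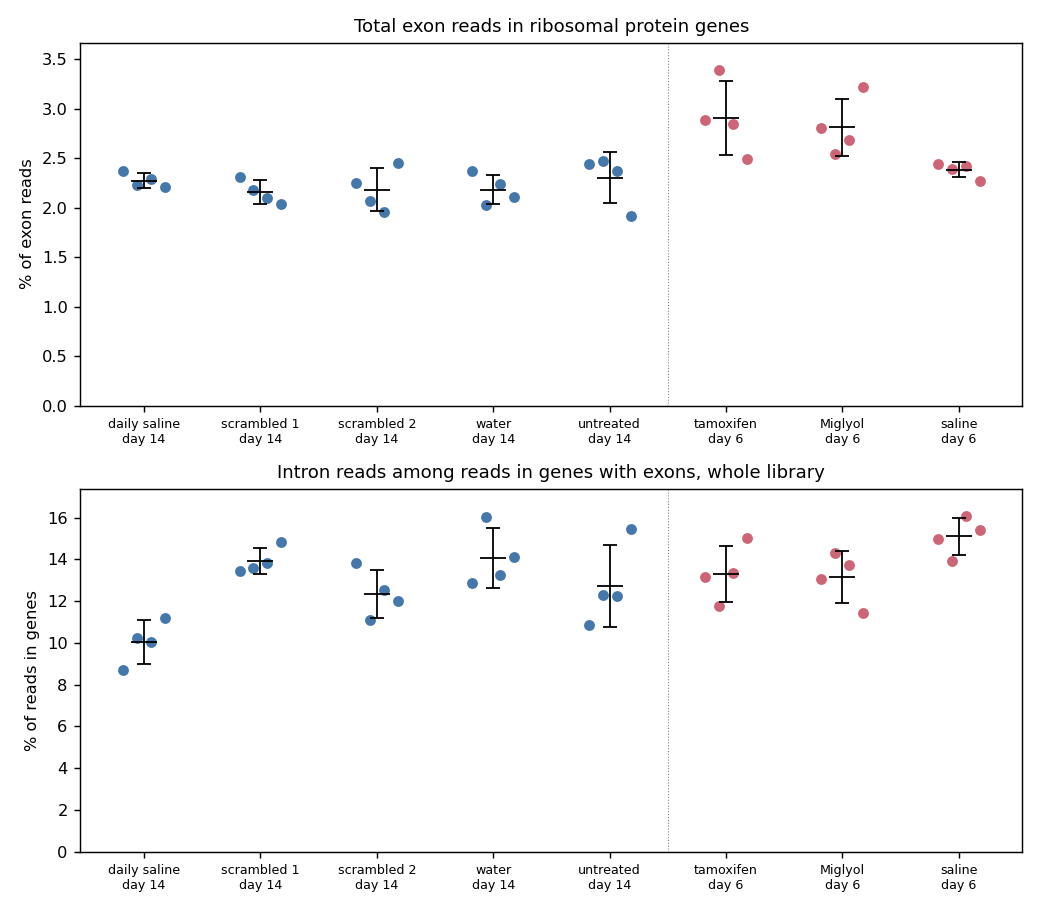
Upper panel: share of exon reads in ribosomal protein genes (percent) in each of the 32 libraries by group. Lower panel: intron share of each library (percent), in the same order, with points for libraries 1 to 4 from left to right in a group and bars for the mean and SD (n = 4) in both panels; the tamoxifen and Miglyol libraries lie above the day 6 saline libraries in the upper panel.

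On day 14, no comparison of control interventions changed a member's level past the threshold, an edgeR quasi-likelihood test with a Benjamini-Hochberg adjusted p under 0.05 over all genes. Daily saline against untreated pups had 0 of 80 members past it (0.233% of all genes), water against untreated 0 (0.0494%), daily saline against water 0 (2.74%), Scrambled 1 against water 0 (0.12%), Scrambled 2 against water 0 (0%) and Scrambled 1 against Scrambled 2 0 (0.205%). At an unadjusted p under 0.05, 3, 3, 15, 3, 1 and 4 of 80 members were found in that order. Over all 14179 genes tested the counts were 1310, 1147, 2503, 1566, 755 and 1547. The median member changed by -0.02, -0.10, 0.07, 0.01, 0.02 and -0.03 on the log2 scale in the same order, where all genes tested had medians within 0.01 of 0, and the median SE of a member was 0.09. These comparisons share their water or untreated libraries, so their values stand side by side and not as separate evidence. DESeq2 found 0 members in 4 of the 6, 1 lower member for Scrambled 1 against water, and 5 higher and 1 lower for daily saline against water.

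Daily saline against water came nearest. Members were above 0 in 60 of 80 cases, and the 4 daily saline libraries lay wholly above the 4 water libraries in 17 members, against 5.47% of all genes. Rpl21, a large subunit protein, had 185, 158, 160 and 159 CPM after daily saline, against 139, 124, 121 and 132 CPM after water. The ranges do not overlap, and the log2 fold change was 0.36 (edgeR adjusted p = 0.0531). Rpl9 (0.20, edgeR adjusted p = 0.0816) followed. The intron share was 8.69% to 11.2% after daily saline and 12.9% to 16.04% after water, and with that share as a covariate the median member was at -0.15. The part of the intron share in the result was not tested further.

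In the other day 14 comparisons the smallest p-values belonged to other members, except for Rpl21 in water against untreated pups. Rpl31 averaged 111 ± 8.64 CPM after daily saline, against 139 ± 11.0 CPM in untreated pups (log2 fold change -0.33, edgeR adjusted p = 0.283). Its sign turned in unique reads. Rpl30, which binds its own messenger in yeast, averaged 74.5 ± 12.4 CPM after Scrambled 1, against 104 ± 10.1 CPM after water (-0.48, edgeR adjusted p = 0.192). It had 75.7, 91.5, 64.4 and 66.3 CPM after Scrambled 1, against 98.9, 99.6, 97.5 and 119 CPM after water, so the ranges do not overlap. Rpl30 was the 1 of 80 members wholly below water there, against 344 of all 14179 genes tested. In water against untreated pups 73 of 80 members were below 0. The smallest p-values there were those of Rpl21 (-0.28) and Rpl17 (-0.21), both with an edgeR adjusted p of 0.400, and in Scrambled 2 against water that of Rpl17 (0.22, adjusted p = 0.873).

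On day 6, tamoxifen in Miglyol against saline raised 39 of 80 members past the threshold and lowered 0, where 11.3% of all genes were higher and 23.7% were called in either direction. The rise covered both subunits, with 18 of 48 large and 21 of 32 small subunit genes. The median member changed by 0.28 on the log2 scale (all genes tested 0.01), 79 of 80 members were above 0, and in 33 the tamoxifen libraries lay wholly above the saline libraries (10.8% of all genes). Among the 23 members with a unique share of at least 50%, 8 rose, with a median of 0.24, and among the 57 below it, 31 rose, with a median of 0.29. Counted in unique reads alone, 22 of the 68 members that could be tested rose, and the share of all genes in that fit is not given here.

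Rps23, a small subunit protein of the decoding centre, had 85.6, 128, 81.9 and 61.6 CPM after tamoxifen, against 54.4, 37.3, 50.2 and 30.1 CPM after saline. The groups do not overlap, and replicate 2 stands highest among the tamoxifen libraries. The log2 fold change was 1.06 ± 0.32 (SE, edgeR adjusted p = 0.0398), with nearly all of its reads shared. The call was lost in 6 of the 8 fits that left out a library of either group, with Xist as a covariate (edgeR adjusted p = 0.0516) and without the filter on low counts (adjusted p = 0.0516). Rps12, a small subunit protein known from flies as a sensor in cell competition, had 18.1, 24.7, 25.2 and 18.3 CPM after tamoxifen, against 17.1, 11.9, 11.9 and 11.2 CPM after saline. It rose by 0.74 ± 0.16 (edgeR adjusted p = 0.00469), and its lowest tamoxifen library lies close above its highest saline library.

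Rpl36a had 95.3, 109, 94.1 and 73.9 CPM after tamoxifen, against 48.8, 58.8, 67.6 and 48.3 CPM after saline (0.74 ± 0.19, edgeR adjusted p = 0.0190). Rpl27, mutated in some families with Diamond-Blackfan anaemia, had 46.7, 84.5, 48.6 and 45.3 CPM, against 39.9, 35.2, 29.8 and 27.004 CPM (0.78 ± 0.22, adjusted p = 0.0262). In Rpl27 replicate 2 alone is far above the rest. Rps27 had 100.5, 149, 123 and 100.3 CPM, against 76.3, 67.0, 91.1 and 61.7 CPM (0.68 ± 0.20, adjusted p = 0.0344). The ranges of Rpl36a, Rpl27 and Rps27 do not overlap. Nearly all reads of these 3 genes were shared, with unique shares of 0.150% for Rpl36a, 0.195% for Rpl27 and 0% for Rps27. Of the 8 fits that left out a library, the call was lost in 5 for Rps27, 2 for Rpl27 and 2 for Rpl36a. Rpl7l1, a factor of large subunit assembly close to Rpl7, was the 1 member below 0 and the 1 whose tamoxifen libraries lay wholly below the saline libraries (75.3 ± 2.00 against 79.95 ± 1.37 CPM, -0.09, edgeR adjusted p = 0.245). Of all genes tested, 12% lay wholly below in the same way.

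The count depends on single libraries and on the intron share. It was 66 without tamoxifen replicate 4, 22 without tamoxifen replicate 1, 15 without tamoxifen replicate 2, 21 without saline replicate 2 and 14 without saline replicate 4. With the intron share of the library as a covariate 2 members rose, with a median of 0.07, and none of the 5 genes above passed (edgeR adjusted p of 0.0769 for Rps12, 0.194 for Rpl27, 0.222 for Rpl36a, 0.356 for Rps27 and 0.357 for Rps23). After the trend of each library with exon length, fitted on the other genes, was removed, 6 members were higher and 9 lower, with a median of -0.00. Rps12 and Rpl27 then still passed. The shares of all genes called in these fits are not given here.

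The same lean to short genes is visible bin by bin. With at most 600 bases of exon, the median log2 fold change of tamoxifen against saline was 0.31 in 25 members and 0.26 in 149 other genes, and above 600 and up to 1000 bases it was 0.31 in 31 members and 0.22 in 480 other genes. Above 1000 and up to 2000 bases it was 0.26 in 17 members and 0.14 in 2297 others. Above 4000 bases other genes had a median of -0.11. In the shortest bin 13 of 25 members were higher, against 28.9% of other genes, and in the next 17 of 31, against 25.4%. What part length, intron share and RNA quality have in the rise was not tested beyond these fits.

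**Figure D3:**
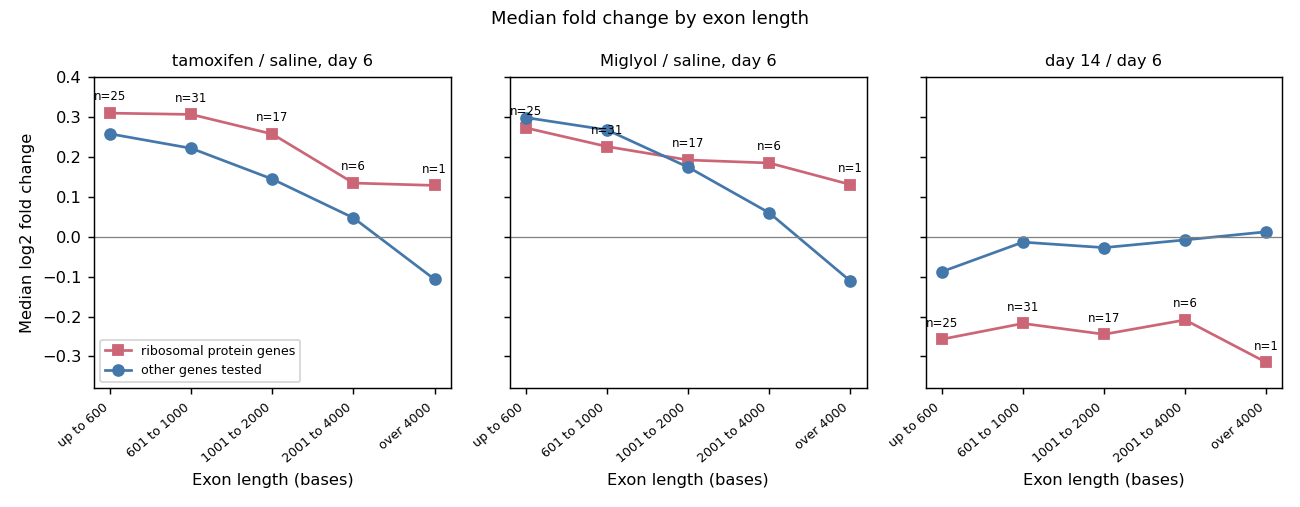
Median log2 fold change by exon length (bases) for ribosomal protein genes and for all other genes tested, in tamoxifen against saline, Miglyol against saline and day 14 against day 6. On day 6 other short genes rise with the members, whereas by age the members lie below other genes in every length bin.

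Miglyol alone against the same saline libraries raised 15 of 80 members and lowered 0 (3.33% of all genes higher, 10.6% in either direction). The rise counted 8 of 48 large and 7 of 32 small subunit genes. The median member changed by 0.22 (all genes tested 0.02), 79 members were above 0, and in 32 the Miglyol libraries lay wholly above the saline libraries (9.67% of all genes). Among members with a unique share of at least 50%, 6 of 23 rose, and among the others 9 of 57.

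Rpl10, a large subunit protein that joins late in assembly, had 28.9, 28.6, 35.0 and 43.2 CPM after Miglyol, against 20.5, 18.0, 22.3 and 18.8 CPM after saline. The groups do not overlap, and the log2 fold change was 0.77 ± 0.13 (edgeR adjusted p = 0.00770). After tamoxifen, with 27.1, 35.2, 34.9 and 29.3 CPM, it was 0.67 (edgeR adjusted p = 0.00199). Only 0.227% of the exon reads of Rpl10 were unique, so its totals consist almost wholly of shared reads. Rps27a, which is made as a fusion with ubiquitin, had 248, 216, 236 and 291 CPM after Miglyol, against 166, 172, 185 and 161 CPM after saline (0.53 ± 0.12, edgeR adjusted p = 0.0157). It too did not overlap. The call of Rps27a was lost in 2 of the 8 fits that left out a library, and in unique reads (edgeR adjusted p = 0.317).

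Rps12 had 17.8, 15.4, 19.0 and 24.1 CPM after Miglyol, against the saline values given above (0.55 ± 0.16, edgeR adjusted p = 0.0427). Rpl22l1, the paralogue of Rpl22, had 70.5, 61.0, 72.7 and 81.8 CPM, against 48.9, 46.3, 62.0 and 49.2 CPM (0.47 ± 0.12, adjusted p = 0.0296). Rps2 had 94.7, 87.8, 98.8 and 111 CPM, against 89.4, 82.3, 69.8 and 60.6 CPM (0.38 ± 0.10, adjusted p = 0.0319). In each of the 3 the ranges overlap through 1 or 2 libraries. Of the 8 fits that left out a library, the call was lost in 6 for Rps12, 6 for Rpl22l1 and 5 for Rps2. With replicate number as a term none of the 3 passed (edgeR adjusted p of 0.101, 0.0546 and 0.0748 in that order).

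With the intron share as a covariate 0 members rose, with a median of -0.00 and Rpl10 at 0.58 (edgeR adjusted p = 0.167). With the length trend removed 2 were higher and 4 lower, with a median of -0.04, and Rpl10 still passed (0.49, edgeR adjusted p = 0.0181). The count was 3, 24, 4 and 1 without Miglyol replicate 1, 2, 3 and 4, and 5, 4 and 1 without saline replicate 2, 3 and 4. In the shortest bin the median was 0.27 in members and 0.30 in other genes, and in the next 0.23 and 0.27.

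Tamoxifen against its vehicle Miglyol changed 0 of 80 members (5.68% of all genes called), and 0 by DESeq2. At an unadjusted p under 0.05 there was 1 member, against 2771 of all 14107 genes tested. The median member changed by 0.05 (all genes tested -0.00), with a median SE of 0.09. The smallest p was that of Rpl15 (124 ± 15.8 after tamoxifen against 145 ± 9.32 CPM after Miglyol, -0.22, edgeR adjusted p = 0.101). The 3 day 6 comparisons share their libraries in pairs, so the rises against saline are not independent of each other.

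**Figure D4:**
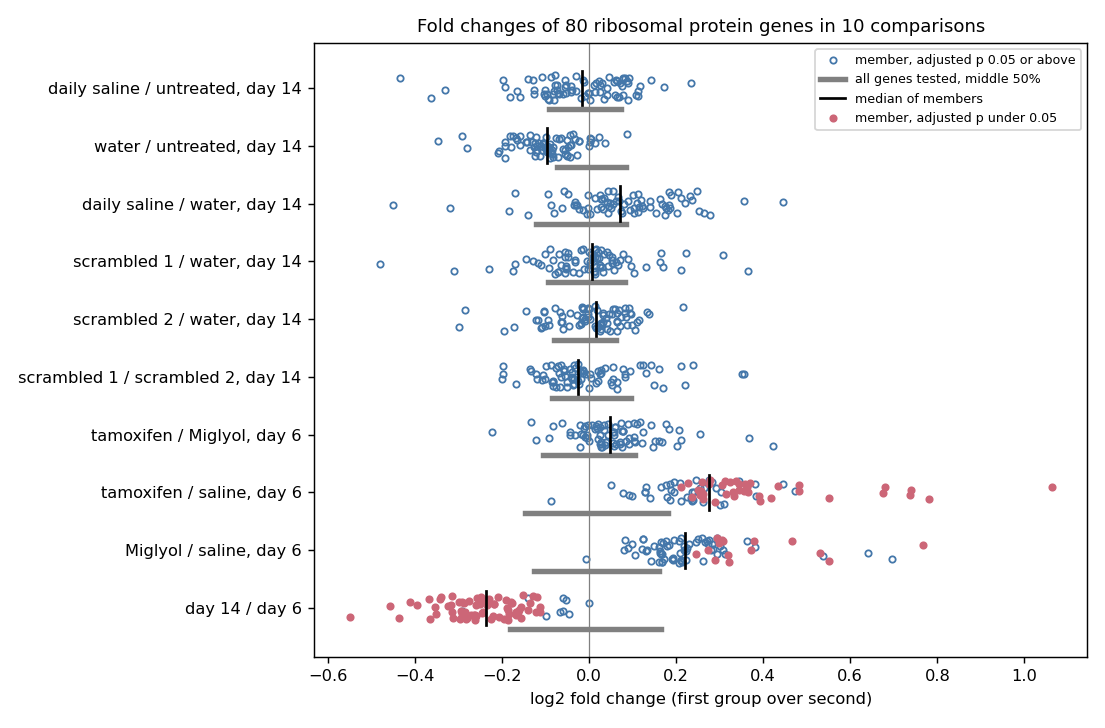
Log2 fold change of each of the 80 tested ribosomal protein genes in the 10 comparisons, as filled points where the adjusted p was under 0.05, with the median of members as a line and the middle 50% of all genes tested as a grey bar. The day 14 comparisons and tamoxifen against Miglyol have no filled point, the points of tamoxifen and Miglyol against saline lie above 0 in 79 of 80 members each, and those of day 14 against day 6 lie below it in all 80.

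Across ages, 70 of 80 members were lower on day 14 (mean of 5 groups, 20 libraries) than on day 6 (mean of 3 groups, 12 libraries), and 0 were higher, where 31.3% of all genes were lower and 61.4% were called in either direction. The fall covered 44 of 48 large and 26 of 32 small subunit genes. All 80 members were below 0, with a median of -0.24 on the log2 scale and a median SE of 0.05 (all genes tested -0.01). Members with a unique share of at least 50% fell in 17 of 23 cases, and the others in 53 of 57.

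Rpsa, which joins the small subunit and is also known as a laminin receptor, ranged between 484 and 620 CPM on day 14 (median 582), against 657 to 902 CPM on day 6 (median 770). All 20 libraries of day 14 lie below all 12 of day 6, and the log2 fold change was -0.40 ± 0.04 (SE, edgeR adjusted p = 2.67e-11). Rplp0, the scaffold of the ribosomal stalk and a common reference gene in PCR, ranged between 718 and 950.5 CPM on day 14 (median 875), against 965 to 1274 CPM on day 6 (median 1101). It fell by 0.37 on the log2 scale (edgeR adjusted p = 1.45e-10). These 2 were the members without overlap, against 4.8% of all genes.

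Rps12 ranged between 7.95 and 15.8 CPM on day 14 (median 12.2), against 11.2 to 25.2 CPM on day 6 (median 18.0), and fell by 0.55 (SE 0.09, edgeR adjusted p = 4.36e-06). Rps26, whose start region is shown above, ranged between 92.1 and 138 CPM (median 116), against 131 to 198 CPM (median 154), and fell by 0.46 (SE 0.06, adjusted p = 6.52e-08). Both overlap at their edges. Rpl36a (-0.44 ± 0.11, edgeR adjusted p = 0.000975) and Rps2 (-0.41 ± 0.06, adjusted p = 5.73e-07) overlapped more widely.

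**Figure D5:**
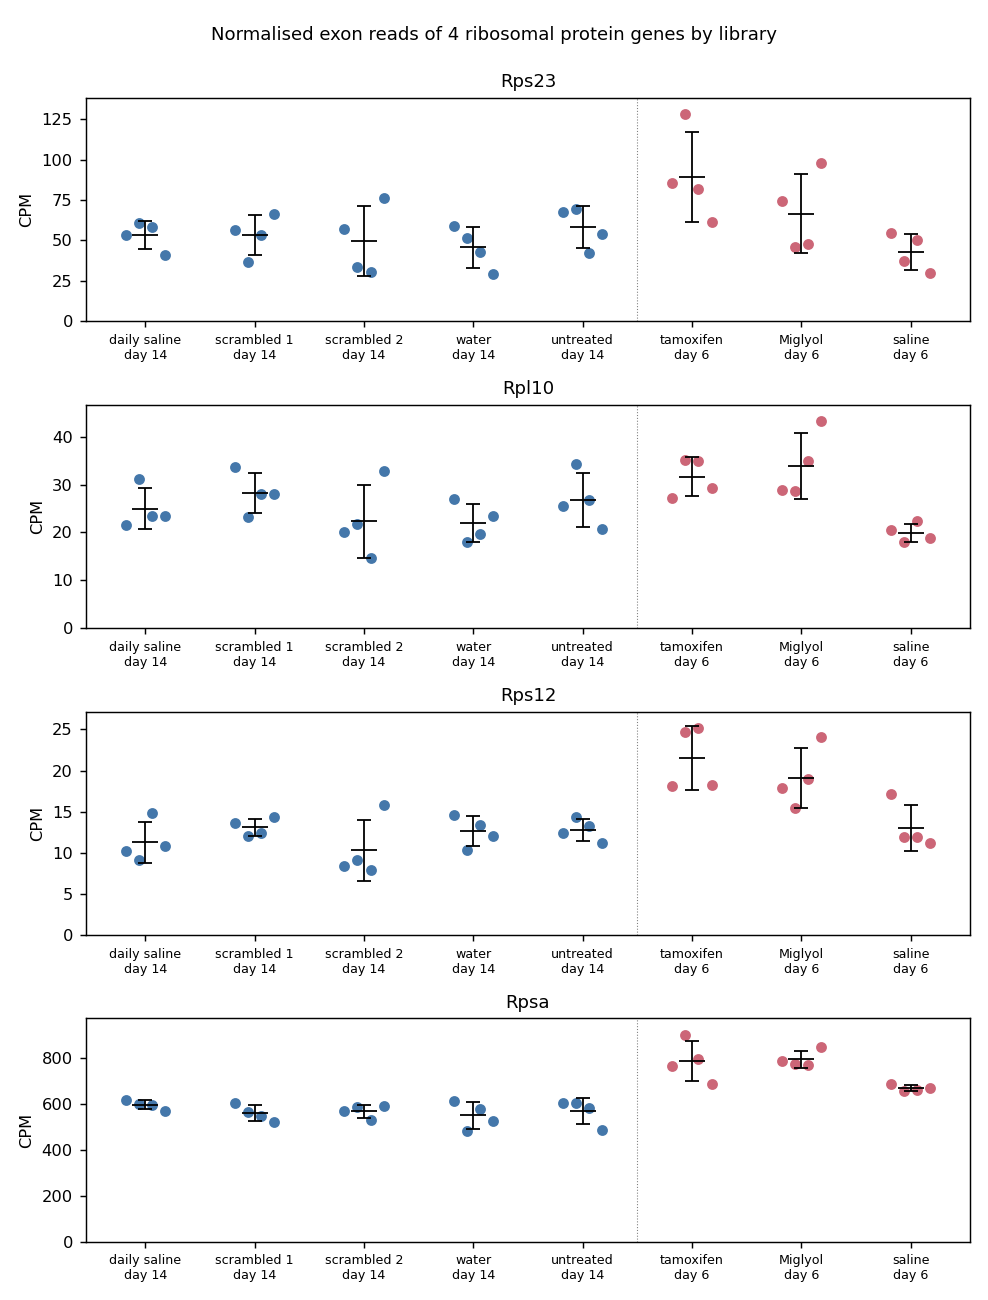
Normalised level (CPM) of Rps23, Rpl10, Rps12 and Rpsa in each library by group, with the group mean and SD (n = 4). The tamoxifen libraries lie wholly above the saline libraries of day 6 for Rps23, Rpl10 and Rps12, and Rpsa lies higher in all libraries of day 6 than on day 14.

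The fall with age depends on which day 6 group stands for day 6. In fits added after the data were seen, day 14 had 73 members lower than after tamoxifen (26.4% of all genes lower; median -0.35) and 65 lower than after Miglyol (26.2% of all genes lower; median -0.30). Against day 6 saline alone it had 13 lower and 1 higher, where 25% of all genes were lower and 24.8% higher, and the median was -0.05. Rpsa (-0.23, edgeR adjusted p = 0.000701) and Rps26 (-0.36, adjusted p = 0.000971) were still lower in that fit, while Rps12 (-0.12, adjusted p = 0.515), Rps2 (-0.18, adjusted p = 0.104) and Rpl36a (-0.01, adjusted p = 0.970) did not pass. Daily saline on day 14 against saline on day 6, fitted on those 8 libraries, had 10 members higher and 12 lower with a median of -0.01.

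By length, the age difference ran unlike the day 6 rises. Its median was -0.26 in members and -0.09 in other genes of at most 600 bases, -0.22 and -0.01 above 600 and up to 1000 bases, -0.24 and -0.03 up to 2000 bases, and -0.21 and -0.01 up to 4000 bases. With the length trend removed 60 members were lower (median -0.17), and with the intron share as a covariate 79.

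Of all 14406 genes tested across ages, 4513 (31.3%) were lower and 4329 were higher, 61.4% in either direction. The 8 markers of proliferating cells moved with age too. All 8 fell, with a median of -1.89 (Ccnb1 -2.15, Mcm2 -1.27, Pcna -0.90), and their sum was 277 to 431 CPM on day 14, against 871 to 1320 CPM on day 6, with none at 0. Red cell markers fell in 6 of 6 cases with a median of -0.92 (sums of 7901 to 17766 CPM on day 14, against 11706 to 28720 CPM on day 6), heart muscle markers in 5 of 7 with 1 higher, and T and B cell markers rose in 6 of 6 and 5 of 5. Adipose markers were higher in 4 of 5 tested with a median of 3.42 (sums of 3.38 to 289 CPM on day 14, against 1.30 to 5.597 CPM on day 6). Thymus markers were higher in 2 of 3 tested (2.93 to 33.03 CPM on day 14, against 1.86 to 7.35 CPM on day 6). Lung markers were higher in 5 and lower in 2 of 11 (19374 to 25666 CPM on day 14, against 16675 to 24421 CPM on day 6), and skeletal muscle markers higher in 1 and lower in 3 of 9 tested. The lung and skeletal muscle lists were called at a share near or below that of all genes. Over all 32 libraries Adipoq was at 0 in 6, Cfd in 10, Lep in 19 and Ucp1 in 4, and among thymus markers Dntt was at 0 in 10, Rag1 in 1, Rag2 in 18 and Ptcra in 22. The part of these markers in the members' fall was not tested.

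On day 14 against day 6, where 31.3% of all genes were lower and 61.4% were called in either direction, the ribosomal protein genes Fau (-0.19) and Rpl36al (-0.16), which lie outside the naming rule, fell, as did 29 of 37 translation factors with 1 higher (Btf3 -0.39, Eif4a1 -0.38, Naca -0.35) and 35 of 49 ribosome biogenesis genes. The list medians were -0.15 for factors and -0.19 for biogenesis genes, beside -0.01 for all genes tested. Npm1, the nucleolar chaperone nucleophosmin, averaged 282 ± 14.5 CPM on day 14, against 404 ± 29.6 CPM on day 6 (-0.52), and Nop56 (-0.57) and Nop58 (-0.54), core proteins of the box C/D particles, fell as well. Among 22 regulators 9 fell and 5 rose, a share called near that of all genes. Myc, which drives ribosome production, averaged 8.52 ± 1.62 CPM on day 14, against 16.8 ± 2.27 CPM on day 6 (-0.97), Larp1 fell by 0.20 and Sesn1, an inhibitor of mTOR complex 1, rose by 0.39. Of 77 genes for mitochondrial ribosomal proteins, 28 fell, a share near that of all genes, and 1 rose, with a median of -0.08.

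Tamoxifen against saline raised Rpl36al (0.41) and Fau (0.40). Translation factors passed in 2 cases upward and 1 downward of 37 (Tpt1 0.34, Eif3b 0.18, Eif4g2 -0.24), and biogenesis genes in 1 upward and 3 downward of 49 (Nhp2 0.33, Wdr12 -0.28, Mdn1 -0.59). Of genes for mitochondrial proteins, 9 of 77 for the mitochondrial ribosome rose (Mrpl57 0.43, Mrps24 0.35) and 14 of 73 for oxidative phosphorylation (Uqcrq 0.49, Ndufa6 0.37), where 11.3% of all genes were higher; the count of the mitochondrial ribosome lies at that background. The list medians were 0.07 for factors, 0.00 for biogenesis, 0.17 for the mitochondrial ribosome and 0.18 for oxidative phosphorylation, beside 0.01 for all genes tested. Among 22 regulators 5 fell and 1 rose (Sesn3 -0.80, Eif4ebp2 -0.36, Larp4 -0.32). Of all 14107 genes tested, 1742 were lower. The lung markers were higher in 7 of 11 cases and lower in 2 (sums of 21574 to 24421 CPM after tamoxifen, against 16675 to 17860 CPM after saline), and B cell markers were higher in 3 of 5 (79.1 to 98.2 CPM, against 60.0 to 66.6 CPM), with no marker of either list at 0. Their part in the members' rise was not tested.

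Miglyol against saline raised Rpl36al (0.30), 0 of 37 translation factors, 8 of 77 mitochondrial ribosomal protein genes (Mrps36 0.43) and 28 of 73 oxidative phosphorylation genes (Ndufb2 0.51, Uqcrq 0.46, Ndufv2 0.40). The medians of these last 2 lists were 0.22 and 0.27, and 3.33% of all genes were higher. Of 22 regulators 6 fell and 2 rose, and Mtor (-0.47), Larp4 (-0.33) and Larp1 (-0.31) were among the 6. Of all 14107 genes tested, 1028 were lower. The lung markers were higher in 3 of 11 cases and lower in 1 (sums of 18641 to 22811 CPM after Miglyol, against 16675 to 17860 CPM after saline), with none at 0. Of the other marker lists, 1 of 6 tested heart muscle markers (Tnni3) and 1 of 8 markers of proliferating cells (Pcna) were higher, and 1 of 7 tested skeletal muscle markers (Neb) was lower. The part of these markers in the members' rise was not tested. Tamoxifen against Miglyol had 3 of 22 regulators higher (Deptor 0.43, Larp1 0.23, Larp4b 0.22), where 524 of all 14107 genes tested were higher. It had 0 genes past the threshold among translation factors, biogenesis genes and mitochondrial ribosomal protein genes. On day 14, daily saline against water had 9 of 12 detained-intron genes lower (Clk4 -0.49, Pnisr -0.45, Prpf38b -0.45) and 2 of 49 biogenesis genes lower (Noc2l and Nop56). Of all 14179 genes tested there, 242 were lower. Detained-intron genes, whose transcripts are kept in the nucleus with introns unspliced, were lower in 8 of 12 cases in daily saline against untreated pups. Of all 14179 genes tested, 30 were lower in that comparison.

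The values of paralogue pairs stand side by side, since the difference within a pair was not tested. Rpl22 was at 0.08 and Rpl22l1 at 0.47 in Miglyol against saline. Rps27, which had 0% unique reads, was at 0.68 in tamoxifen against saline and Rps27l at 0.24 (edgeR adjusted p = 0.0513), and in Miglyol against saline Rps27 was at 0.31 (adjusted p = 0.336) and Rps27l at 0.37 (adjusted p = 0.0150). By age Rps27 lay at -0.00 and Rps27l at -0.07, and neither passed. Rpl7 fell with age (-0.18), and Rpl7l1 passed in none of the 10 comparisons (day 14 against day 6 -0.06, edgeR adjusted p = 0.0541).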

How the data were processed

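Total and unique exon counts, intron counts and gene counts per gene record, TPM values and RPKM values were deposited by the authors for each of 32 libraries. Demultiplexing used bcl2fastq 2.0, per the submitters' processing notes. Strand handling, aligner and build are each not given in the sources used here, so reads of overlapping genes may be shared. Total exon counts were tested in R 4.3.3 by the robust quasi-likelihood F test of edgeR 4.0.16 (genes kept by filterByExpr, TMM factors, Benjamini-Hochberg adjusted p under 0.05 over all genes), in 14179 genes on day 14, 14107 on day 6 and 14406 across ages. TPM values, computed by the authors and deposited with the counts, served only for levels between genes. RPKM values that the authors deposited were not tested. SE was derived from the fold change and its F statistic (absolute log2 value over root F), and other values are mean ± SD. Intron share is intron reads over intron and exon reads of genes with exon reads.

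Groups were taken from the labels. Libraries held 7918537 to 12443221 exon reads, and these counts cover counting error only. Members, gene lists and tests were chosen with earlier results of these data known. Genes named per comparison are the up to 5 largest rises and falls past the threshold with at least 1 CPM, or the 3 smallest p where fewer than 3 passed, plus extremes of level, unique share, length and intron share, and the paralogue pairs. On simulated counts for tamoxifen against saline (14141 genes), 91% of 2-fold and 76% of 1.5-fold changes were found, and 11 of 178 calls were false. Genes were drawn independently, without shifts shared by a whole library. Smaller changes, such as that of the median member, were not simulated, so their rate of recovery is not known. Alternatives were unique reads, DESeq2 1.42.0, other scalings and filters, intron share, Xist or replicate number as a term, removal of each library's trend with exon length (loess over genes that are not members), and each library left out. Word sharing used 50-base words of 1 GENCODE vM21 transcript per member. Results of a few genes are not reported here.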

Additional observations from a re-analysis of the deposited data

Results flagged for a closer look

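Among 200 group values examined (23 named members and 2 shares in 8 groups of 4), 7 held a library whose distance to the nearest other library was, relative to the group's range, over Dixon's 95% critical value for 4 values, and chance gives about 1 in 20. After daily saline, replicate 1 had 185 CPM of Rpl21 (the others 158 to 160 CPM). After Scrambled 1, replicate 1 had 120 CPM of Rpl15 (the others 99.8 to 103 CPM). After Scrambled 2, replicate 4 had 15.8 CPM of Rps12 (the others 7.95 to 9.06 CPM). After water, replicate 4 had 119 CPM of Rpl30 (the others 97.5 to 99.6 CPM). After tamoxifen, replicate 2 had 84.5 CPM of Rpl27 (the others 45.3 to 48.6 CPM). After saline on day 6, replicate 2 had 114 CPM of Rpl15 (the others 121 to 123 CPM), the 1 low value of the 7, and replicate 1 had 17.1 CPM of Rps12 (the others 11.2 to 11.9 CPM).

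The pseudogene records that share 50-base words with members hold few exons, and their gene reads entered no comparison. The 710 such records held 3363 gene reads in the highest library and 1898 in the lowest.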

How the results depend on the processing

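The direction of the median member in tamoxifen against saline, Miglyol against saline and day 14 against day 6 was kept under DESeq2, other scalings, both filters, unique reads, Xist as a covariate, the replicate block and every library left out. With the intron share as a covariate, tamoxifen against saline had 2 members higher (median 0.0729), Miglyol against saline 0 (median -0.00262), tamoxifen against Miglyol 4 higher and 1 lower, and daily saline had a median of -0.17 against untreated and -0.15 against water. With the length trend removed, tamoxifen against saline had 6 higher and 9 lower (median -0.00334), Miglyol against saline 2 higher and 4 lower (median -0.0417), tamoxifen against Miglyol 1 higher and 1 lower, daily saline against water 4 higher, and Scrambled 1 against Scrambled 2 1 lower. In unique reads tamoxifen against saline had 22 higher, tamoxifen against Miglyol 1 lower, daily saline against water 1 higher and 1 lower, and Rpl31 was at 0.0762 for daily saline against untreated. The shares of exon reads in unique reads were 0.998%, 0.946%, 0.956%, 0.950% and 1.00% for daily saline, Scrambled 1, Scrambled 2, water and untreated, 1.26%, 1.24% and 1.05% for tamoxifen, Miglyol and saline on day 6, and 1.05% over all libraries. Fits on only the libraries compared gave 33 higher for Miglyol against saline, 5 higher and 1 lower for daily saline against water, 2 lower for daily saline against untreated, and 10 higher and 12 lower (median -0.0112) for daily saline on day 14 against saline on day 6. Day 14 against day 6 saline alone gave 1 higher and 13 lower (median -0.0478). Daily saline against water had 5 higher and 1 lower by DESeq2, 4 higher with Xist as a covariate, and 9 higher (median 0.14) when all reads in genes, introns included, were counted; Scrambled 1 against water had 1 lower by DESeq2. The count of all reads in genes, the Xist covariate and the single day 6 groups were chosen after seeing the data. The causes were not tested. For members counted under these settings, here and above, the share of all genes called is given only for the single day 6 groups. The other counts have no such share beside them.

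Libraries left out in turn gave 14 to 66 members higher for tamoxifen against saline (median 0.19 to 0.34), 1 to 24 for Miglyol against saline (median 0.14 to 0.26), 62 to 73 lower for day 14 against day 6 (median -0.26 to -0.21), 0 to 2 lower for tamoxifen against Miglyol, with 2 without tamoxifen replicate 2, and 0 to 1 higher for Scrambled 1 against Scrambled 2, with 1 without Scrambled 2 replicate 4. Same-numbered libraries showed little shared deviation (mean r of 0.05 on day 14, from -0.24 to 0.47 over 40 pairs, and -0.08 on day 6, from -0.34 to 0.21 over 12 pairs). Other pairs had a mean r of -0.02 on day 14 and 0.03 on day 6. With ranges this wide the check cannot decide whether the numbers pair the samples, and the labels do not say. With the replicate block 18 members were higher for tamoxifen against saline, 3 for Miglyol against saline and 3 for daily saline against water. Low unique shares limit the fits on unique counts, in which 12 members could not be tested. The 4 libraries a group limit what could be found near the median SE of 0.09.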
